A study of Caenorhabditis elegans with 10 samples.

Results

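The lipase cluster consists of 3 neighbouring genes of *C. elegans*, *lips-11*, *lips-12* and *lips-13*, which are 3 of the 19985 genes and 3 of the 14 measured genes of the lipase-related *lips* family. They were chosen by name and because their ribosome footprints were high in the cold in these same data, so their difference between the warm and the cold conditions is given as a description and not as a finding. The data come from ribosome profiling (Ribo-seq) of whole wild-type (N2) animals grown at 20°C to the first day of adulthood. Animals were collected at 20°C, after a few hours at 10°C (2 h in the protocol, 3 h in the sample tags), or after the 10°C step and then a stay at 4°C of 1, 3 or 5 days. Each of the 5 conditions had 2 samples, but the values were given as 1 pooled column per condition, so no difference below has a replicate check or a test. The samples titled day 5 carry a tag that says day 3, and the title was used.

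Lipases hydrolyse the ester bonds of fats and other lipids, releasing fatty acids. The *lips* genes encode predicted lipases, most of them little studied. *lips-11* is known as a target of the unfolded protein response of the endoplasmic reticulum (ER): when unfolded proteins or altered membrane lipids stress the ER, the sensor IRE-1 cuts the *xbp-1* mRNA, and the spliced mRNA encodes the transcription factor XBP-1.

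The study also followed *lips-11* with a reporter and by RT-qPCR, and the oligos directed to the gene are shown here because they define what those assays read. The first pair amplified the *lips-11* promoter on chromosome II for a GFP reporter (only the gene-specific ends are given), and the second pair measured the *lips-11* mRNA. All are written 5′ to 3′.

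promoter FWD: aatgggcggagcctattatt

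promoter REV: tcgggatctggaaaaaaa

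mRNA FWD: accattgtccaagcggagtt

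mRNA REV: agagggactcttcttgtttgagt

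The 3 genes lie head to tail on the minus strand of chromosome II within 9202 nt (WBcel235), and 0 other annotated genes lie in that span. *lips-11* (T13B5.5, WBGene00020472) runs from 1108841 to 1111001, *lips-12* (T13B5.6, WBGene00020473) from 1112184 to 1114233, and *lips-13* (T13B5.7, WBGene00020474) from 1115606 to 1118042. Gaps of 1182 and 1372 nt separate them. Each gene has 5 exons and 1 transcript in the table. The proteins were predicted at 288 residues for LIPS-11, 277 for LIPS-12 and 278 for LIPS-13.

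The exon structures were alike. The first coding exon held 188 coding nt in all 3 genes. The second held 356 nt in *lips-11* and *lips-12* and 359 nt in *lips-13*. The last 3 coding exons had 109, 118 and 63 coding nt in both *lips-12* and *lips-13*, whereas *lips-11* had 151, 112 and 60. Protein sequences and the stretches of coding sequence the 3 genes share were not analysed here. The sources used here do not say how footprints that match more than 1 gene were assigned, so some footprints may be split between the members.

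**Figure D1:**
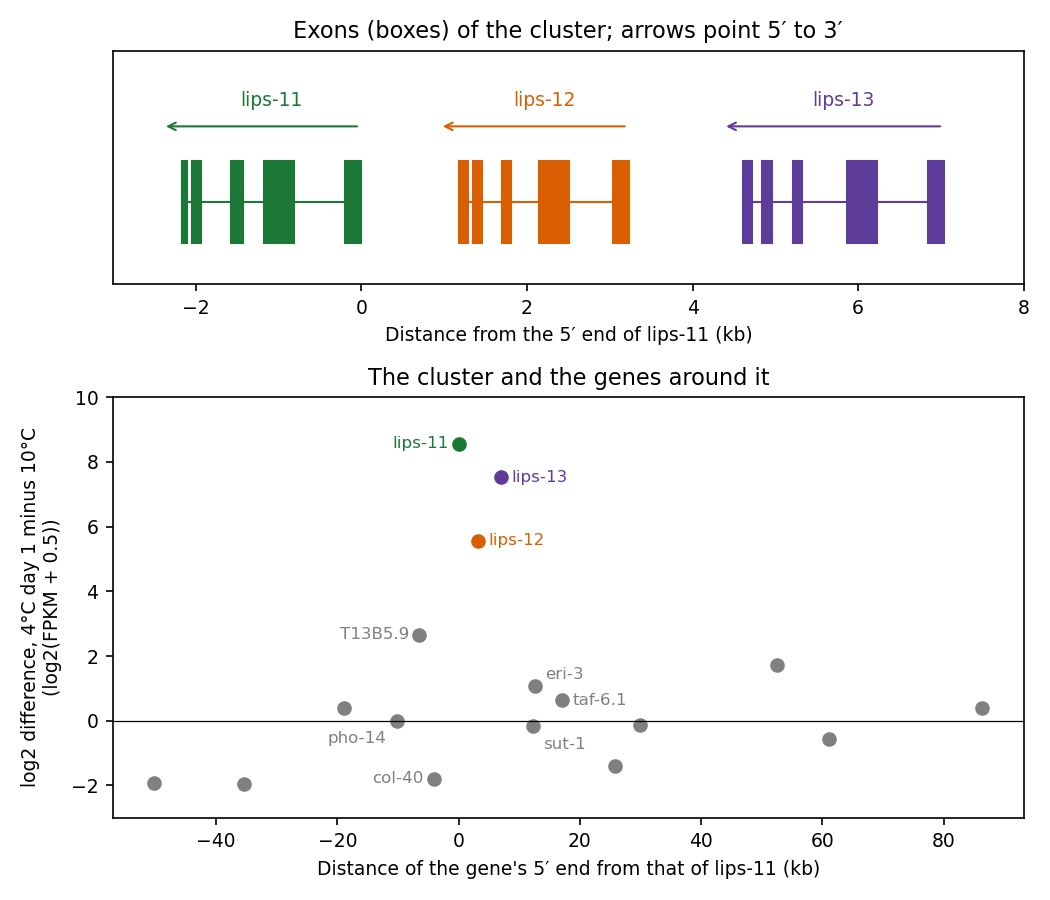
The upper panel shows the exons (boxes) of *lips-11*, *lips-12* and *lips-13* by distance in kb from the 5′ end of *lips-11*. The lower panel shows the log2 difference between 4°C day 1 and 10°C on the log2(FPKM + 0.5) scale (vertical axis) for the members (coloured) and for flanking genes averaging 1 FPKM or more (grey) by the distance of their 5′ ends. The members sit at 5.56 to 8.56, and the highest flanking gene, *T13B5.9*, sits at 2.65 with 8 counts at day 1. The farthest flanking gene, *lin-42*, lies beyond the axis.

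Footprints are given as FPKM (fragment counts divided by coding length in kilobases and by the column's total) and as the whole counts behind them, which were recovered from the steps between FPKM values. Pooled totals were 675550 counts for 20°C, 486109 for 10°C, and 2657757, 2981339 and 3058810 for days 1, 3 and 5 in the cold, so the deepest column held 6.29 times as many as the shallowest. A value of 0 was read against a floor of 3 counts, the number that a count of 0 allows. A fold given as "at least" divides the measured level by that floor and leaves out the counting error of the measured level. Intervals are 95% intervals that cover counting error only. FPKM gives a gene's share, per coding length, of a column's counts summed over all transcripts. It therefore carries neither the total rate of translation nor the split between mRNA amount and ribosomes per mRNA.

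*lips-11* was the most densely occupied member. It had 0 counts at 20°C and 0 at 10°C, where 3 counts would have been 5.12 and 7.12 FPKM. At 4°C it had 434 counts and 188 FPKM (171 to 207) at day 1, 423 counts and 164 FPKM (148 to 180) at day 3, and 151 counts and 56.9 FPKM (48.2 to 66.8) at day 5. The 3 cold columns were thus all above the floors of the warm columns. Among the 9945 genes that averaged 1 FPKM or more, *lips-11* ranked 582 at day 1, 604 at day 3 and 1489 at day 5.

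*lips-13* came second. It also had 0 counts at 20°C and at 10°C, with floors of 5.31 and 7.37 FPKM. It had 204 counts and 91.7 FPKM (79.6 to 105) at day 1, 162 counts and 64.9 FPKM (55.3 to 75.7) at day 3, and 93 counts and 36.3 FPKM (29.3 to 44.5) at day 5. The intervals of the 3 days did not overlap with one another. Its rank was 1070 at day 1, 1340 at day 3 and 2101 at day 5.

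*lips-12*, which lies between the other two, was the least occupied. It had 0 counts in both warm columns, with floors of 5.32 FPKM at 20°C and 7.40 at 10°C. In the cold it had 51 counts and 23.0 FPKM (17.1 to 30.3) at day 1, 49 counts and 19.7 FPKM (14.6 to 26.1) at day 3, and 26 counts and 10.2 FPKM (6.66 to 14.9) at day 5. The interval at day 5 reached below the floor at 10°C. *lips-12* ranked 2900, 3290 and 4524 on days 1, 3 and 5.

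**Figure D2:**
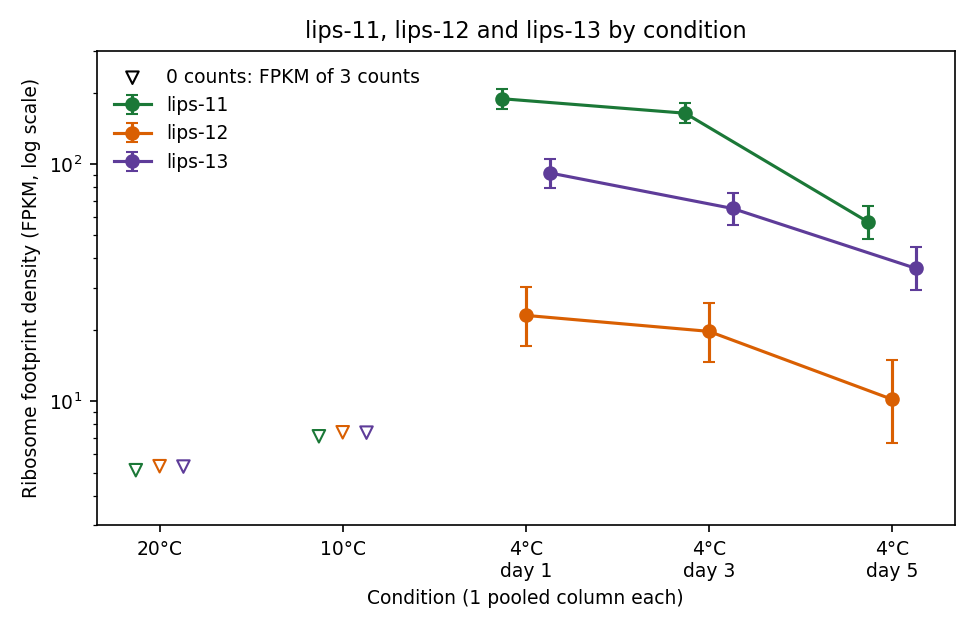
FPKM (vertical axis, log scale) of *lips-11*, *lips-12* and *lips-13* in the 5 conditions, with 95% counting intervals as bars; open triangles mark the FPKM of 3 counts where a gene had 0 counts. All 3 genes sit highest at 4°C day 1, in the order *lips-11* (188), *lips-13* (91.7), *lips-12* (23.0), and lowest of the cold columns at day 5.

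The order of the members per coding length was the same on all 3 days in the cold, *lips-11* above *lips-13* above *lips-12*. The FPKM of *lips-11* was 8.19 times that of *lips-12* at day 1 (6.11 to 11.2), 8.30 times at day 3 (6.17 to 11.4) and 5.59 times at day 5 (3.67 to 8.83). *lips-13* was 3.99 times *lips-12* at day 1 (2.92 to 5.53), 3.29 times at day 3 (2.38 to 4.63) and 3.56 times at day 5 (2.29 to 5.74). No pair of neighbours in that order had an interval that reached 1 on any of the days.

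The ratio of *lips-11* to *lips-13* moved over time. It was 2.05 at day 1 (1.74 to 2.44), 2.52 at day 3 (2.10 to 3.04) and 1.57 at day 5 (1.20 to 2.05). The intervals of day 3 and day 5 did not overlap, so between those days *lips-11* lost more of its occupancy than *lips-13* by more than counting error. Together the members summed to 303 FPKM at day 1, 248 at day 3 and 103 at day 5, of which *lips-11* made up 62.1%, 65.9% and 55.0%.

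The first comparison asked what a few hours at 10°C did relative to 20°C. None of the 3 members was at least 2-fold higher on the log2(FPKM + 0.5) scale, beside 12.2% of the 9945 genes. Both columns held 0 counts for each member, so no change below the floors was detectable at this depth.

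The second comparison, 4°C day 1 against 10°C, spans the values the members were chosen by. All 3 members were at least 2-fold higher, beside 17.8% of all genes (14.5% were at least 2-fold lower), and nothing is read from that count. All 3 also had at least 10 counts and an interval that left out 1, beside 4.92% of genes higher and 3.08% lower by that stricter rule. Set against the floor of 3 counts at 10°C, with the day 1 level taken as measured, *lips-11* was at least 26.5-fold higher, *lips-13* at least 12.4-fold and *lips-12* at least 3.11-fold. At their day 1 share of the column's counts, 79.4 counts of *lips-11*, 37.3 of *lips-13* and 9.33 of *lips-12* would have been found at the depth of the 10°C column, where each had 0.

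The difference on the log2(FPKM + 0.5) scale was 8.56 for *lips-11*, 7.53 for *lips-13* and 5.56 for *lips-12*. They stood at ranks 4, 11 and 39 of 9945 genes. For genes with 0 counts in the reference these values depend on the 0.5 that was added, whereas the folds over the floor above do not. With the 3 cold columns summed against both warm columns summed, a setting added after the data were seen, *lips-11* had 1008 counts against 0 and was at least 44.9-fold higher. In the same sums *lips-13* had 459 counts against 0, at least 20.4-fold higher, and *lips-12* had 126 against 0, at least 5.61-fold higher.

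**Figure D3:**
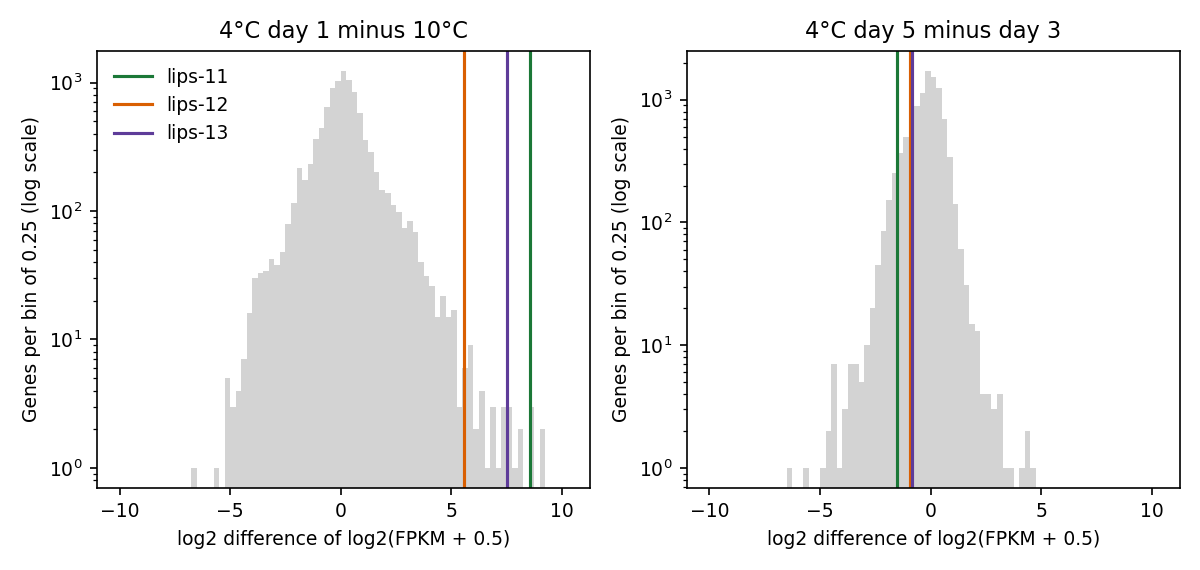
Number of genes (vertical axis, log scale) by difference on the log2(FPKM + 0.5) scale (horizontal axis, bins of 0.25) over 9945 genes, for 4°C day 1 minus 10°C (left) and 4°C day 5 minus day 3 (right), with the members as vertical lines. On the left the members lie in the upper tail at 5.56 to 8.56; on the right they lie below 0, at -1.51 for *lips-11*, -0.92 for *lips-12* and -0.83 for *lips-13*.

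Between day 1 and day 3 in the cold the members changed little. None of the 3 was at least 2-fold lower, beside 6.78% of genes. *lips-11* at day 3 was 0.869 times its day 1 level (0.758 to 0.996) and *lips-12* was 0.857 times (0.567 to 1.29). *lips-13* was 0.708 times (0.572 to 0.874). The interval of *lips-12* included 1, those of *lips-11* and *lips-13* did not, and that of *lips-11* ended close to 1.

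Between day 3 and day 5 all members were lower. *lips-11* was 2.87-fold lower at day 5 (2.38 to 3.48), *lips-12* 1.93-fold lower (1.18 to 3.24) and *lips-13* 1.79-fold lower (1.38 to 2.33). Only *lips-11* was at least 2-fold lower on the log2(FPKM + 0.5) scale, so 1 of 3 members was called, beside 14.7% of genes. The median over all 9945 genes was -0.08 in the same comparison.

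Set against day 1, the day 5 level of *lips-11* was 3.31-fold lower (2.74 to 4.01), that of *lips-13* 2.52-fold lower (1.97 to 3.26) and that of *lips-12* 2.26-fold lower (1.38 to 3.77). All 3 members were at least 2-fold lower, beside 17.5% of genes. The intervals of *lips-12* and *lips-13* reached below 2.

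At day 5 the members were still above their 20°C values. *lips-11* had 151 counts against 0 at 20°C and was at least 11.1-fold higher, and *lips-13* had 93 counts against 0 and was at least 6.85-fold higher. *lips-12* had 26 counts against 0, which makes it at least 1.91-fold higher, so a 2-fold difference was not secured for it. By the log2(FPKM + 0.5) rule all 3 were called, beside 23.6% of genes. Higher genes made up 52.3% of all genes called in this comparison, and 38.7% when the columns were rescaled to a common upper quartile; the call of the members was the same under both.

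Having 0 counts in both warm columns was not particular to the cluster. Of the 9945 genes, 342 had 0 counts at both 20°C and 10°C, and 25 of these, the 3 members included, had at least 10 counts in each cold column. Of the 342, 2 had more FPKM than *lips-11* at day 1, *nspe-6* with 302 FPKM and *F19B10.13* with 277 FPKM, named after their values were seen. Of the 25 genes, 7 were at least 2-fold lower at day 5 than at day 1, and the 3 members were among the 7.

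The genes whose profile over the 5 columns was most like that of *lips-11* were taken as those with the smallest Euclidean distance between log2(FPKM + 0.5) values. All 5 also had 0 counts at 20°C and at 10°C. The nearest was *T23E7.6* on the X chromosome, at a distance of 0.643, with 151 FPKM at day 1, 230 at day 3 and 68.5 at day 5. *K01A2.10*, on chromosome II like the cluster, followed at 1.18, with 85.4, 155 and 45.4 FPKM on those days.

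*C08E8.3* came next at a distance of 1.49, with 102, 214 and 126 FPKM, and *T04H1.13* at 1.61. *T04H1.13* had 188, 179 and 174 FPKM on 15, 16 and 16 counts in the cold columns. *lips-13* was the fifth at 1.80, and *lips-12* was at rank 42. *T23E7.6*, *K01A2.10* and *C08E8.3* had their highest FPKM at day 3, whereas *T04H1.13*, *lips-11*, *lips-12* and *lips-13* had theirs at day 1.

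The 6 nearest genes around the cluster had counts in the warm or few counts in the cold. On the left side *col-40*, a cuticle collagen gene, had 7 counts at day 1 against 5 at 10°C in a shallower column, a ratio of 0.256 (0.0700 to 1.02). *T13B5.9* had 8 counts against 0, and *pho-14*, a member of the acid phosphatase family, had 92 against 17, a ratio of 0.990 (0.586 to 1.77). *pho-14* had 230 counts at day 3 and 248 at day 5, when *lips-11* had 423 and 151.

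On the right side *sut-1* had 64 counts at day 1 against 13 at 10°C, a ratio of 0.900 (0.491 to 1.78). *eri-3* had 14 against 1, a ratio of 2.56 (0.390 to 108), and *taf-6.1* had 35 against 4, a ratio of 1.60 (0.572 to 6.20). For the 5 of these 6 neighbours with counts in both columns, the interval included 1. Of the 20 genes flanking the cluster, 10 on each side, 15 averaged 1 FPKM or more, and of those 3 were at least 2-fold higher and 5 at least 2-fold lower at day 1 than at 10°C, beside 17.8% and 14.5% of all genes.

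Most of the *lips* family was barely seen in these footprints. Of the 11 other measured *lips* genes, 3 (*lips-1*, *lips-2* and *lips-8*) had 0 counts in every column, and 4 averaged 1 FPKM or more. Only *lips-10* and *lips-15* had at least 10 counts at day 1. At day 1 *lips-11* and *lips-13* were above the highest value of any other *lips* gene in any column, 29.2 FPKM for *lips-15* at 20°C.

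*lips-15* differed from the cluster in being occupied in the warm. It had 29.2 FPKM at 20°C, 23.9 at 10°C, and 23.6, 23.8 and 3.04 at days 1, 3 and 5, on 17, 10, 54, 61 and 8 counts. At day 1 its level was close to the 23.0 FPKM of *lips-12*, and it too was lower at day 5. *lips-10* had 5.25 FPKM at 20°C, 4.86 at 10°C, and 10.7, 10.7 and 5.41 at days 1, 3 and 5. Its warm values rested on 3 and 2 counts.

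**Figure D4:**
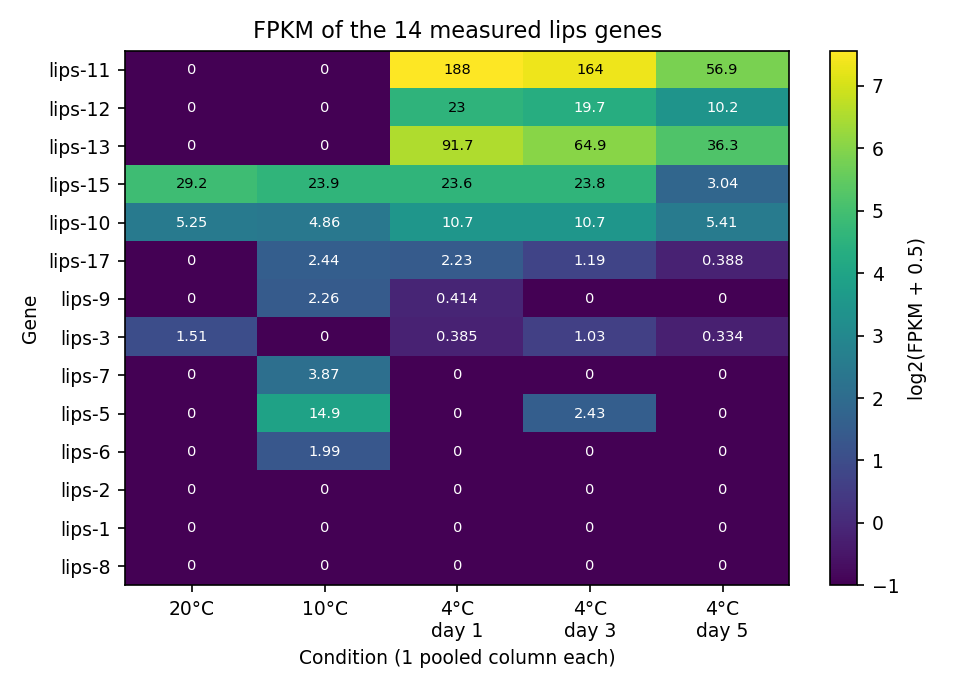
FPKM of the 14 measured *lips* genes (rows) in the 5 conditions (columns), printed in each cell and coloured by log2(FPKM + 0.5). *lips-11*, *lips-12* and *lips-13* are at 0 in both warm columns and at 10.2 to 188 FPKM in the cold, *lips-15* is occupied in the first 4 columns (23.6 to 29.2 FPKM) and at 3.04 FPKM at day 5, and most other cells are at or near 0.

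Outside the *lips* family, the clearest differences among lipase genes at day 1 against 10°C were in phospholipases. Of 20 other lipases and phospholipases, 8 averaged 1 FPKM or more, and 3 of them were at least 2-fold higher at day 1 than at 10°C and 0 lower, beside 17.8% and 14.5% of all genes. Their median difference was 0.19 on the log2(FPKM + 0.5) scale beside 0.10 over all genes. *ipla-2*, a patatin-like phospholipase gene, had 1122 counts at day 1 against 14 at 10°C, a ratio of 14.7 (8.70 to 26.9). *ipla-2* then had 182 counts at day 3 and 116 at day 5; its day 3 level was 0.145 times that of day 1 (0.123 to 0.169), against 0.869 for *lips-11*. *ipla-3* had 61 counts at day 1 against 4 at 10°C, a ratio of 2.79 (1.04 to 10.6).

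Among the ER stress genes, *lips-11* was set beside the sensors, the targets the study assayed and the ER folding and degradation genes. The study chose those targets knowing the response of *lips-11* to cold, so their direction is not independent evidence. Of the 7 assayed targets that averaged 1 FPKM or more, 3 were at least 2-fold higher at day 1 than at 10°C and 0 lower, beside 17.8% and 14.5% of all genes. Their median difference was 0.46 on the log2(FPKM + 0.5) scale beside 0.10 over all genes. These 3 also had at least 10 counts and an interval without 1, beside 4.92% of all genes.

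*srp-7*, a serpin gene and an IRE-1-dependent target like *lips-11*, had 843 FPKM at day 1 against 97.2 at 10°C, a ratio of 8.68 (6.60 to 11.7). The other assayed targets of the IRE-1 branch, *dnj-27* and *C36B7.6*, were not called. By RT-qPCR the study reported that the mRNA of both rose in the cold, and that this rise depended on IRE-1. That comparison was against 20°C and not 10°C. In the footprints *dnj-27* had 9.04 FPKM against 6.45, a ratio of 1.40 (0.424 to 7.30), on 23 counts against 3. For *C36B7.6* the values were 9.36 against 7.96, a ratio of 1.18 (0.526 to 3.09), on 45 counts against 7. Both intervals reached above 2, so a 2-fold rise was not excluded for either gene. *hsp-4*, which encodes the ER chaperone BiP, had 549 FPKM against 194, a ratio of 2.83 (2.29 to 3.53). *cbp-3*, assayed as a PEK-1 target, had 100 FPKM against 27.4, a ratio of 3.66 (1.81 to 8.62). Unlike *lips-11*, all 3 had counts in both warm columns, at least 52 for *srp-7*, 92 for *hsp-4* and 7 for *cbp-3*.

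Their later course varied. *srp-7* had 786 FPKM at day 3 and 547 at day 5, while *hsp-4* had 276 and 282 and *cbp-3* had 29.1 and 19.6. *lips-11*, at 164 and 56.9 FPKM on these days, was thus near its day 1 level at day 3, as *srp-7* was. At day 5 *lips-11* was lower than at day 3, and so was *srp-7*, at 0.696 times (0.655 to 0.739). *cbp-3* was at 0.675 times (0.429 to 1.05), and *hsp-4* was at about its day 3 level. Of the 7 assayed targets, 1 was at least 2-fold lower at day 5 than at day 3, beside 14.7% of all genes. This was *C36B7.6*, at 0.287 times (0.172 to 0.463). No difference between these genes' courses was tested.

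Of the 4 sensor genes, *xbp-1* included, 0 were at least 2-fold higher or lower at day 1 than at 10°C, beside 17.8% and 14.5% of all genes. Their median difference was 0.64 on the log2(FPKM + 0.5) scale, beside 0.10 over all genes. *xbp-1* had 45.2 FPKM at 10°C and 79.7, 49.3 and 43.5 on days 1, 3 and 5 at 4°C, with its lowest value at 20°C (21 counts). *ire-1* had between 2.54 and 5.10 FPKM on 4 to 28 counts. Footprint totals per transcript do not show the splicing of *xbp-1*. From footprint coverage along the gene the study proposed increased splicing during cooling, which was not examined here.

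**Figure D5:**
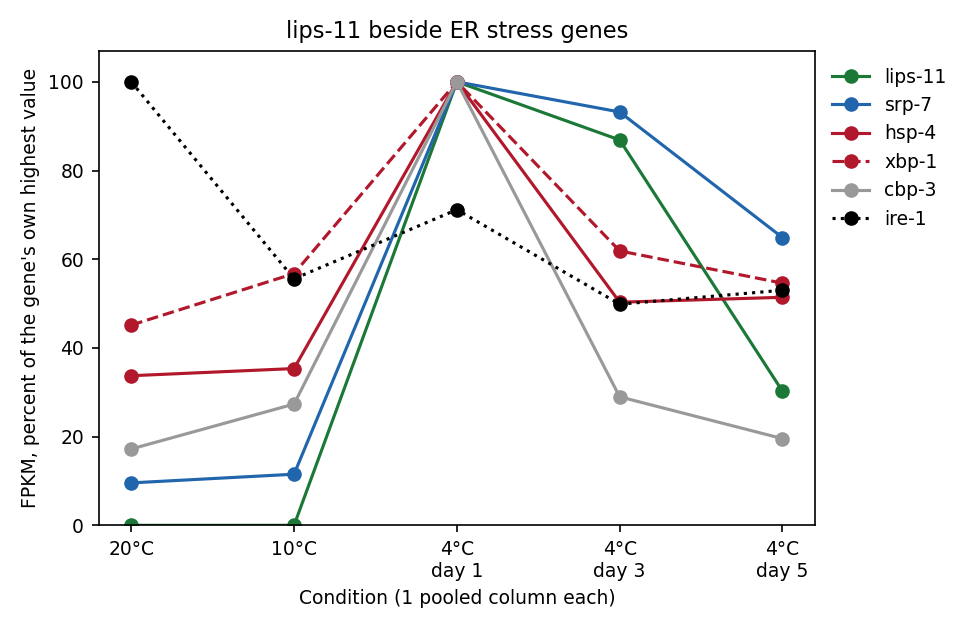
FPKM in the 5 conditions as percent of each gene's own highest value (vertical axis) for *lips-11*, the targets *srp-7*, *hsp-4* and *cbp-3*, and *xbp-1* and *ire-1*. *lips-11* is at 0 in both warm columns (0 counts); *lips-11*, *srp-7*, *hsp-4*, *cbp-3* and *xbp-1* are highest at day 1, and *ire-1* is highest at 20°C (5.10 FPKM).

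Of the 16 ER folding and degradation genes, 2 were at least 2-fold higher at day 1 than at 10°C and 0 lower, beside 17.8% and 14.5% of all genes. Their median difference was 0.42 on the same log2 scale, beside 0.10 over all genes. *manf-1*, which encodes an ER-resident secreted factor, had 226 counts at day 1 against 19 at 10°C, a ratio of 2.18 (1.36 to 3.68). The list for phosphatidylcholine synthesis, the lipid supply studied in connection with IRE-1, also held the regulators *sbp-1* and *mdt-15*. Of its 12 genes that averaged 1 FPKM or more, 0 were at least 2-fold higher and 3 at least 2-fold lower at day 1 than at 10°C, beside 17.8% and 14.5% of all genes. Their median difference was -0.78 on that scale beside 0.10 over all genes. *sams-1*, the S-adenosylmethionine synthetase gene, was at 0.108 times its 10°C level (0.0679 to 0.169), and *pmt-2*, a phosphoethanolamine methyltransferase gene, at 0.420 times (0.345 to 0.513). *sams-1* had 33 counts at day 1, 144 at day 3 and 36 at day 5. A link between these genes and *lips-11* was not tested.

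Marker genes also differed between the columns. The summed FPKM of 5 intestine markers was 288 at 20°C, 467 at 10°C, and 643, 650 and 397 at days 1, 3 and 5, most of it from the microvillar actin gene *act-5* (240 to 595 FPKM). The intermediate filament gene *ifb-2* had 24.3 FPKM at 20°C, 36.4 at 10°C, and 34.0, 37.1 and 16.7 at days 1, 3 and 5. The transcription factor gene *elt-2* had 2.27, 6.32, 5.78, 14.7 and 3.77 FPKM in the same order, and the esterase gene *ges-1* had 4.38, 4.87, 6.01, 2.58 and 2.52. Thus 4 of the 5 were higher at day 1 than at 20°C, on 2 to 57 counts per column for *elt-2* and *ges-1*. Against 10°C, *act-5* and *ges-1* were higher at day 1, whereas *ifb-2*, *elt-2* and *vha-6* were lower. From day 3 to day 5 *act-5*, *ifb-2*, *elt-2* and *vha-6* were lower, and *ges-1* had 13 counts on both days. The exception at day 1 against 20°C was *vha-6*, a proton pump subunit gene, with 17.1 FPKM at 20°C, 11.1 at 10°C, and 2.46, 2.84 and 0.378 at days 1, 3 and 5. The summed FPKM of 4 hypodermis markers was 456 at 20°C, 485 at 10°C and 39.8 to 5.13 in the cold, nearly all of it from the adult collagen gene *col-19*. The sums were 447 to 696 FPKM for body wall muscle markers, 813 to 1006 for germline, 93.9 to 207 for neuron and 66.4 to 118 for sperm markers. Genes within a sum went different ways. From 20°C to day 5 the muscle gene *unc-27* went from 416 to 471 FPKM. The other muscle markers were lower, *unc-54* (136 to 19.3), *unc-15* (98.9 to 42.6) and *myo-3* (9.27 to 4.92). In the germline *oma-1* was lower (242 to 160), whereas *glh-1* (174 to 331), *puf-5* (326 to 380) and *pgl-1* (71.6 to 124) were higher. Most of the neuron sum came from *snb-1*. None of these markers was at 0 in all columns, and their part in the values of *lips-11*, *lips-12* and *lips-13* was not tested. In footprints of whole animals, fewer cells of a type, less RNA per cell and fewer ribosomes per mRNA cannot be told apart.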

How the data were processed

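Ribosome-protected fragments of 28 to 30 nt from whole N2 animals were sequenced in 10 samples (2 per condition). Per the labels and the methods of the study, adapters were removed with fastp 0.23.4 and reads mapped with STAR 2.7.11b to WBcel235 within the ORFik pipeline, and the authors computed the deposited FPKM values with DESeq2 1.42.1. The deposited table holds FPKM per transcript in 1 pooled column per condition; the sources used here do not say how replicates were pooled. A further 1 column matched no sample and was not used.

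Coding lengths and positions came from the Ensembl release 115 annotation. FPKM times coding length was a whole multiple of a column-wide step for 100% of values (tolerance 0.01 counts), which gave the counts and column totals. The totals sum over all transcripts, and the sources used here do not say how reads that overlap several transcripts were counted. The totals may therefore exceed the number of reads. Per gene the transcript with the highest mean was used. Genes averaging 1 FPKM or more were kept (9945), and a difference of at least 2-fold on log2(FPKM + 0.5) was called. Ratios have 95% Clopper-Pearson intervals and levels have exact Poisson intervals, for counting error only. Scripts ran in Python 3.11.15 with pandas 2.3.3, SciPy 1.17.1, Matplotlib 3.10.9 and NumPy 2.4.6. The calls were also run on simulated counts that held counting error only, which cannot show how they hold under variation between replicates.

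Besides the members, genes were named if they were among the 3 on each side of the cluster, the 5 most like *lips-11*, or the genes of each list that were at least 2-fold changed at 4°C day 1 against 10°C with at least 10 counts and an interval without 1; *lips-10*, *lips-15*, *xbp-1*, *ire-1*, *dnj-27*, *C36B7.6* and markers are named for their family or role. The members and lists were chosen with earlier results of these data known. The alternatives were other pseudocounts (0.1 and 1), other filters, median ratio and upper quartile rescaling, the stricter call and other transcripts.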

Additional observations from a re-analysis of the deposited data

How the results depend on the processing

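The number of members called at least 2-fold higher or lower was the same as reported under all 84 combinations of comparison, direction and alternative. Part of these could not differ. At 10°C against 20°C each member had 0 counts in both columns under every setting, and every member averaged more than 5 FPKM, so no filter removed one. Of 108 log2 differences of the members under alternatives, 0 reversed and 12 moved. Those at 10°C against 20°C compared 0 counts with 0 counts and could not move. Those 12 were comparisons against 0 counts with another pseudocount, where the value follows from the number added: that of *lips-11* at 4°C day 1 against 10°C was 10.9 with 0.1 and 7.56 with 1, in place of 8.56. Each member has 1 transcript in the table, so the choice of transcript changed nothing. Reading the count step from a member's own smallest value was not run, because no member has a column with a count of 1.

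The number of genes at least 2-fold higher depended on the filter and on the counting interval. At 10°C against 20°C it was 1214, and 1838 with no filter, 481 with a mean of at least 5 FPKM and 36 with at least 10 counts and an interval without 1. In the same order it was 1774, 2874, 938 and 489 at day 1 against 10°C, 535, 1059, 185 and 205 at day 3 against day 1, 283, 574, 141 and 111 at day 5 against day 3, and 575, 937, 336 and 314 at day 5 against day 1. At day 5 against 20°C it was 2347, and 1185 with the counting interval. The number at least 2-fold lower, added after the data were seen, was 1444 at day 1 against 10°C, and 542 with a mean of at least 5 FPKM and 306 with the counting interval. It was 674 at day 3 against day 1, and 1081 with no filter, 358 and 334. At day 5 it was 1459 against day 3, and 692 and 770, and 1739 against day 1, and 924 and 1066. Upper quartile rescaling put the median of all genes at -0.13 in place of 0.13 at day 5 against 20°C and at -0.04 in place of 0.10 at day 1 against 10°C.

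With the gene mean subtracted, 3 of the 5 genes most like *lips-11* were the same, *K10D3.8* and *nspe-6* replaced *C08E8.3* and *T04H1.13*, and *lips-12* stood at rank 21; with a pseudocount of 1 the 5 were the same. No paired analysis was possible because the columns pool the replicates, and for the same reason no replicate could be left out. Depth limits the warm values: 3 counts of *lips-12* at 10°C would be 7.40 FPKM, so a level below this would not be told from 0.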
